A study of Mus musculus with 6 samples.

Results

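The subject is a set of 10 receptor, junction and vessel wall genes of endothelial cells: Kdr, Flt1, Tek, Cdh5, Pecam1, Etv2, Plvap, Lyve1, Vwf and Esm1. Among probe sets annotated with a single gene symbol, the brightest on average over the 6 arrays stood for each gene. All 10 were measured, on 15 of the 45101 probe sets of the array, and they are 10 of the 18193 genes with a value. The genes were picked with earlier results of these data known, and their probe sets were chosen by the mean level over all arrays, so the values below describe these embryos and do not support the choice. RNA came from whole mouse embryos at embryonic day 8.5 and was read on single-colour Affymetrix arrays, 3 per group. Embryos of the double knockout group were Fz2-/- and Fz7-/-, and embryos of the single knockout group were Fz2+/+ and Fz7-/-. Both groups therefore lacked Fz7, one of the Frizzled receptors for Wnt ligands, and differed by design only in Fz2. Both were on a mixed C57BL6/129 background, each sample was labelled as mixed gender, and no wild-type or Fz2 single knockout embryo was analysed here. The labels do not give the number of embryos in a sample, nor tell whether litters were separate, and part of the spread between samples may be technical.

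Endothelial cells line all blood vessels. At this stage angioblasts of the mesoderm, specified by the ETS factor ETV2, assemble the dorsal aortae, the endocardium and the vessel plexus of the yolk sac. Vascular endothelial growth factor (VEGF) acts on them through its receptor KDR, also called VEGFR2, while FLT1, or VEGFR1, binds the same ligand and restrains its action. TEK, or TIE2, is the angiopoietin receptor of the maturing vessel. CDH5 and PECAM1 hold neighbouring cells together. PLVAP, LYVE1, von Willebrand factor (VWF) and ESM1 mark particular vessels or states of the endothelium.

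ETS factors bind DNA around a GGAA core, and endothelial genes carry many such sites. The promoter table, from RefSeq on build GRCm38.p6, held 5 of the 10 genes (Kdr, Flt1, Tek, Etv2 and Esm1). The 250 bases before the start are shown for 3 of them. Kdr is shown as a receptor with near-equal groups, Etv2 as the ETS factor itself, and Esm1 as a gene whose groups did not overlap. Each reads 5′ to 3′ on the strand of the gene. Capitals mark GGAA, or TTCC where the core lies on the other strand.
Kdr, chr5:75978456-75978705, - strand: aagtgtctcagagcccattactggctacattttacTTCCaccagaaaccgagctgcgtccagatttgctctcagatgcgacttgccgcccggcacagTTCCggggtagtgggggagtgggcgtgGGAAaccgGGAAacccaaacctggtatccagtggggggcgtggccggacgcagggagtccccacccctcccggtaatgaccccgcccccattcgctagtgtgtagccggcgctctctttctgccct
Etv2, chr7:30635853-30636102, - strand: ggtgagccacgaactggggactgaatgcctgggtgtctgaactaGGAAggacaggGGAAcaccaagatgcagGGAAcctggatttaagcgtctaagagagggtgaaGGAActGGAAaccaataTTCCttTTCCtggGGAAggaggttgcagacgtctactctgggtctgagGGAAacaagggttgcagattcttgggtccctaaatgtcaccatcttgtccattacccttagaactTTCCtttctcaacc
Esm1, chr13:113209409-113209658, + strand: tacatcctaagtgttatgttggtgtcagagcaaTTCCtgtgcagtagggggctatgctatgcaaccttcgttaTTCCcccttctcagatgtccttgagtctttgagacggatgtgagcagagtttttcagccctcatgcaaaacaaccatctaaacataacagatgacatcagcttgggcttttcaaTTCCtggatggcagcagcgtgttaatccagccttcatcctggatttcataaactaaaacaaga
The core occurred 4 times before Kdr, 10 times before Etv2 and 3 times before Esm1, and also 4 times before Flt1 and 2 times before Tek. Of all 32536 distinct promoter windows of this length, 93.4% held the core on either strand, with a median of 3 matches, so its presence sets none of these genes apart. The longer form GGAAG contains the core and is CTTCC when read from the opposite side. It occurred 3 times before Flt1, 2 times before Etv2 and once before Kdr, and lay in 64.1% of windows. The core letters of the Wnt-responsive TCF/LEF factors, searched as CTTTGA on either strand, were found once before Esm1 and not before Kdr, Flt1, Tek or Etv2, against 13.9% of all windows. These letter matches are descriptions of the windows and not evidence of binding.

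Every value below has to be read with 1 unusual array in mind, double knockout replicate 1. Its correlation with the rest was 0.986 to 0.990 over all genes, where any pair without it reached 0.997 to 0.998. Of all genes, 479 deviated by over 1 log2 unit in it, compared with 18 to 37 in each remaining array. The red cell globin Hbb-y read 4.05 there and averaged 12.4 elsewhere, and the yolk sac lipoprotein gene Apob read 11.29 there and averaged 7.45 elsewhere. The genotype check separated the groups as labelled. Fzd2, the current symbol of Fz2, gave 7.30, 7.69 and 7.63 in the double knockout (replicates 1 to 3), against 9.86, 9.99 and 10.01 in the single knockout. Its log2 difference was -2.42 (SE 0.11) with n = 3 in either group (limma adjusted p = 0.00567), and it was the 1 gene past an adjusted p of 0.05, or 0.0055% of 18193. An exact two-sided permutation test gave p = 0.1, its minimum at this sample size. With each array left out in turn its limma adjusted p lay between 0.000601 and 0.120, and it passed only without double knockout replicate 1 or 2. Fzd7 read 4.89 ± 0.10 in the double knockout and 4.92 ± 0.01 in the single knockout (SD, n = 3), and no source used here says where its probe sets lie relative to the deletion.

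None of the 10 endothelial genes passed the test over all genes, with limma adjusted p from 0.872 to 0.971. By their values in single arrays, some had near-equal groups, some were set apart by 1 array, and some were lower in every double knockout array. In 9 of 10 genes the double knockout mean was lower, against 53.8% of all genes, and the median difference was -0.38 on the log2 scale, against -0.01 over all genes. Without double knockout replicate 1 these became 6 of 10 genes, against 53.3% of all genes, and a median of -0.03. That array held the lowest of the 6 values for 8 of the 10 genes. In 3 genes, Vwf, Lyve1 and Esm1, every double knockout array lay below every single knockout array, where 6.6% of all genes did. None had the opposite arrangement, seen in 4.85% of all genes. The same 3 had an unadjusted limma p under 0.05, as did 4.96% of all genes in either direction. Because the genes were chosen with such values in view, these shares describe them and test nothing. In RNA from whole embryos, fewer cells of a type and less RNA per cell cannot be told apart.

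**Figure D1:**
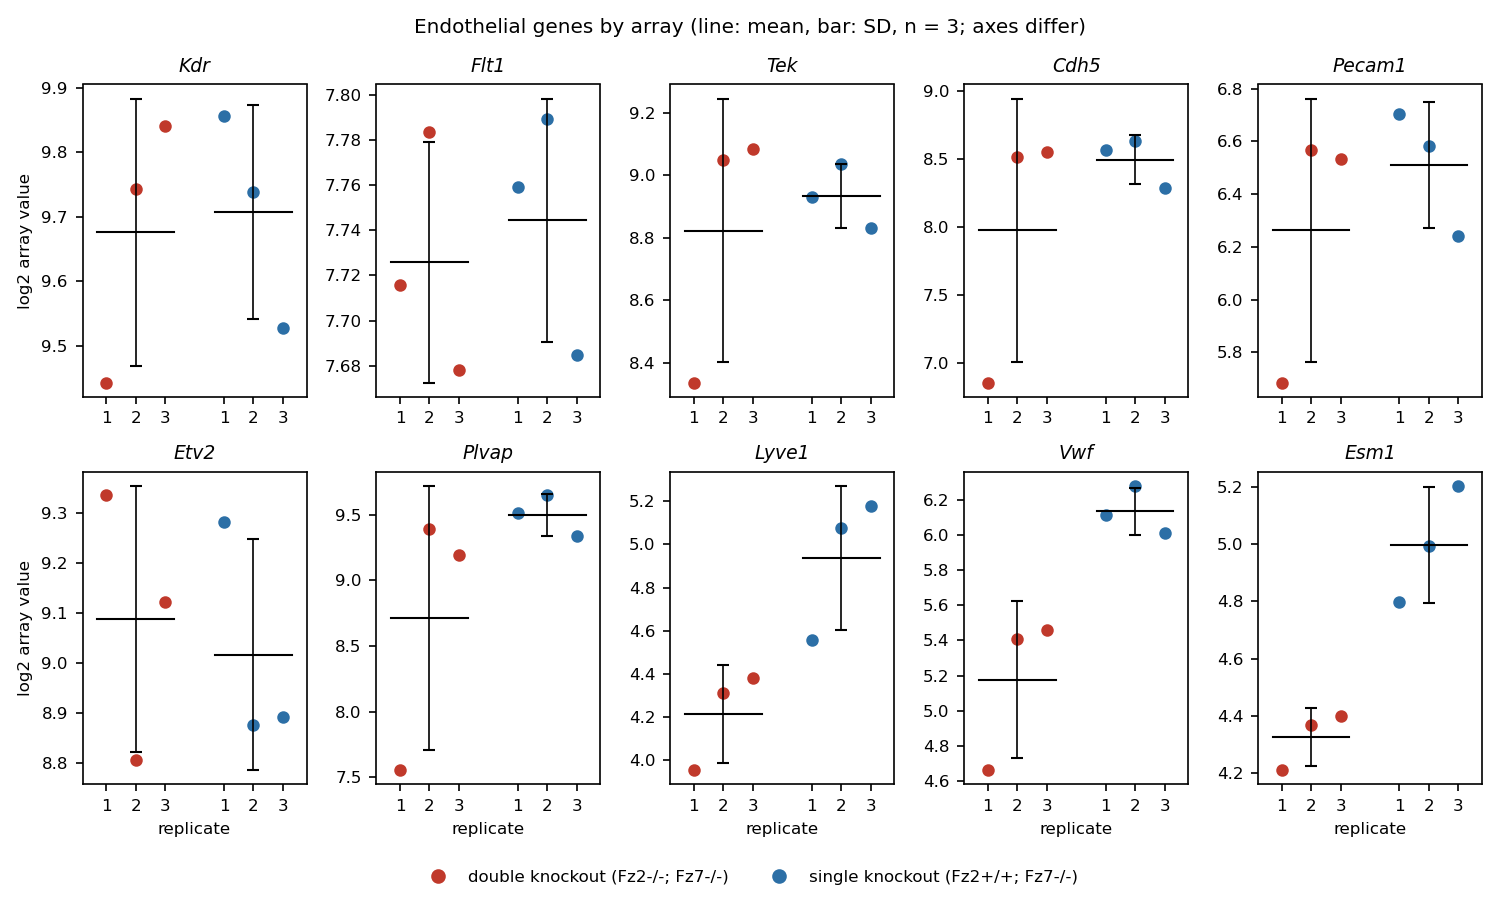
Log2 array values (vertical axis) of the 10 endothelial genes in each array, with double knockout replicates 1 to 3 in red on the left and single knockout replicates 1 to 3 in blue on the right; lines are group means, bars are SD (n = 3), and the axes differ between genes. Double knockout replicate 1 is the lowest point for all genes except Flt1 and Etv2, and the groups do not overlap for Lyve1, Vwf and Esm1.

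The VEGF receptors had near-equal group means. Kdr, the receptor that carries most VEGF signalling in endothelium, gave values of 9.44, 9.74 and 9.84 in the double knockout (replicates 1 to 3), against 9.86, 9.74 and 9.53 in the single knockout. The groups overlapped, with the highest value in single knockout replicate 1 and the lowest in double knockout replicate 1. The difference was -0.03 (SE 0.13), or 97.8% of the single knockout level, and it was 0.08 (SE 0.10) without double knockout replicate 1.

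Flt1, the VEGF receptor that also occurs as a secreted trap for the ligand, read 7.72, 7.78 and 7.68 in the double knockout, against 7.76, 7.79 and 7.68 in the single knockout. Its difference of -0.02 (SE 0.06) had the smallest error of the 10 genes, and the array that stood apart was not its lowest. The other 3 probe sets of Flt1 were less uniform, with differences of 0.16, -0.10 and -0.25 (SE 0.09, 0.11 and 0.09, limma adjusted p over all probe sets 0.939, 0.951 and 0.939). The most negative of them read 5.71, 5.81 and 5.90 in the double knockout, against 5.89, 6.09 and 6.18 in the single knockout. The groups met at one end only, where double knockout replicate 3 reached the level of single knockout replicate 1. No source used here says which Flt1 transcripts each probe set reads.

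Tek, the angiopoietin receptor, read 8.34, 9.05 and 9.08 in the double knockout, against 8.93, 9.04 and 8.83 in the single knockout. Double knockout replicate 1 was the low array and the other 2 double knockout arrays were the highest of all 6. The difference was -0.11 (SE 0.20) with all arrays and 0.13 (SE 0.08) without that array, on the other side of 0. The margin was narrow, with 9.047 in double knockout replicate 2 against 9.036 in single knockout replicate 2. How many of all genes show this order was not counted.

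In the junction genes the group difference came from 1 array. Cdh5, which encodes VE-cadherin of the adherens junction, read 6.85, 8.52 and 8.55 in the double knockout, against 8.56, 8.63 and 8.29 in the single knockout. Double knockout replicate 1 lay far below the other 5 arrays, which spanned a narrow range. The difference was -0.52 (SE 0.45) with all arrays and 0.04 (SE 0.11) without it, or 69.7% and 103% of the single knockout level. A second, dimmer Cdh5 probe set gave 0.13 (SE 0.13). Pecam1, the adhesion molecule CD31 of endothelium and platelets, read 5.69, 6.57 and 6.53 in the double knockout, against 6.70, 6.58 and 6.24 in the single knockout. The same array was lowest and the remaining values overlapped, with a difference of -0.25 (SE 0.26) that was 0.04 (SE 0.14) without it.

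Etv2, the transcription factor that specifies blood and endothelial progenitors and is switched off as they mature, was the 1 gene with a higher double knockout mean. It read 9.33, 8.81 and 9.12 in the double knockout, against 9.28, 8.88 and 8.89 in the single knockout. Each group held a high array, replicate 1 in both, and the groups overlapped. The difference was 0.07 (SE 0.17), and -0.05 (SE 0.15) without double knockout replicate 1. In that array Etv2 was the highest of the 6 arrays, while Cdh5 there deviated from the average of the rest by -1.66. The mean deviation of 11 epiblast and primitive streak markers was also highest there, although the list was not uniform. The pluripotency gene Pou5f1 read 10.77 in it and averaged 6.35 elsewhere, while Tdgf1, a Nodal co-receptor gene, was lowest of the 6 arrays there at 5.87. The part of these markers in the Etv2 value was not tested.

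Plvap, a protein of the diaphragms of endothelial pores, read 7.56, 9.39 and 9.19 in the double knockout, against 9.51, 9.65 and 9.34 in the single knockout. It had the widest spread of the 10 genes in the double knockout, 1.83 from lowest to highest, and the groups overlapped between double knockout replicate 2 and single knockout replicate 3. The difference was -0.79 (SE 0.47), and -0.21 (SE 0.11) without double knockout replicate 1. The direction was the same in both, and 13 of 13 alternatives gave a value below 0, from -1.13 to -0.21. Some of these alternatives repeat the main difference by design.

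Vwf, Lyve1 and Esm1 were lower in every double knockout array. Vwf, the adhesive glycoprotein that endothelial cells and platelets store and secrete, read 4.66, 5.41 and 5.46 in the double knockout, against 6.12, 6.28 and 6.01 in the single knockout. The gap between the groups was wider than the whole range of the single knockout. The difference of -0.96 (SE 0.22, limma adjusted p = 0.872) was the largest of the 10, at 51.4% of the single knockout level. Without double knockout replicate 1 it was -0.70 (SE 0.09, limma adjusted p = 0.486), or 61.4%. It stayed between -1.10 and -0.70 under 12 alternatives, and none passed the threshold.

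Lyve1, a hyaluronan receptor of lymphatic and some embryonic blood vessel endothelium and of macrophages, read 3.96, 4.31 and 4.38 in the double knockout, against 4.56, 5.08 and 5.18 in the single knockout. The groups did not overlap, although single knockout replicate 1 lay close to the double knockout arrays. The difference was -0.72 (SE 0.19, limma adjusted p = 0.872), or -0.59 (SE 0.18) without double knockout replicate 1. The other Lyve1 probe set did not repeat the gap. It read 4.36, 4.52 and 4.48 in the double knockout, against 4.50, 4.50 and 4.76 in the single knockout. These groups overlapped, and the difference was -0.13 (SE 0.09). Both probe sets were dim, below the median of all probe sets in every array.

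Esm1, a proteoglycan secreted by endothelial tip cells at the front of growing vessels, read 4.21, 4.37 and 4.40 in the double knockout, against 4.80, 4.996 and 5.20 in the single knockout. The double knockout arrays lay within 0.19 of each other, so the gap did not rest on the array that stood apart. The difference was -0.67 (SE 0.11, limma adjusted p = 0.872), and -0.62 (SE 0.12) without it, or 62.7% and 65.2% of the single knockout level. Esm1 also lay below the array medians of 5.79 to 5.82 in all 6 arrays. RMA compresses differences of such dim probe sets, and the arrays carry no detection call here. Vwf was below those medians in the double knockout and above them in the single knockout.

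**Figure D2:**
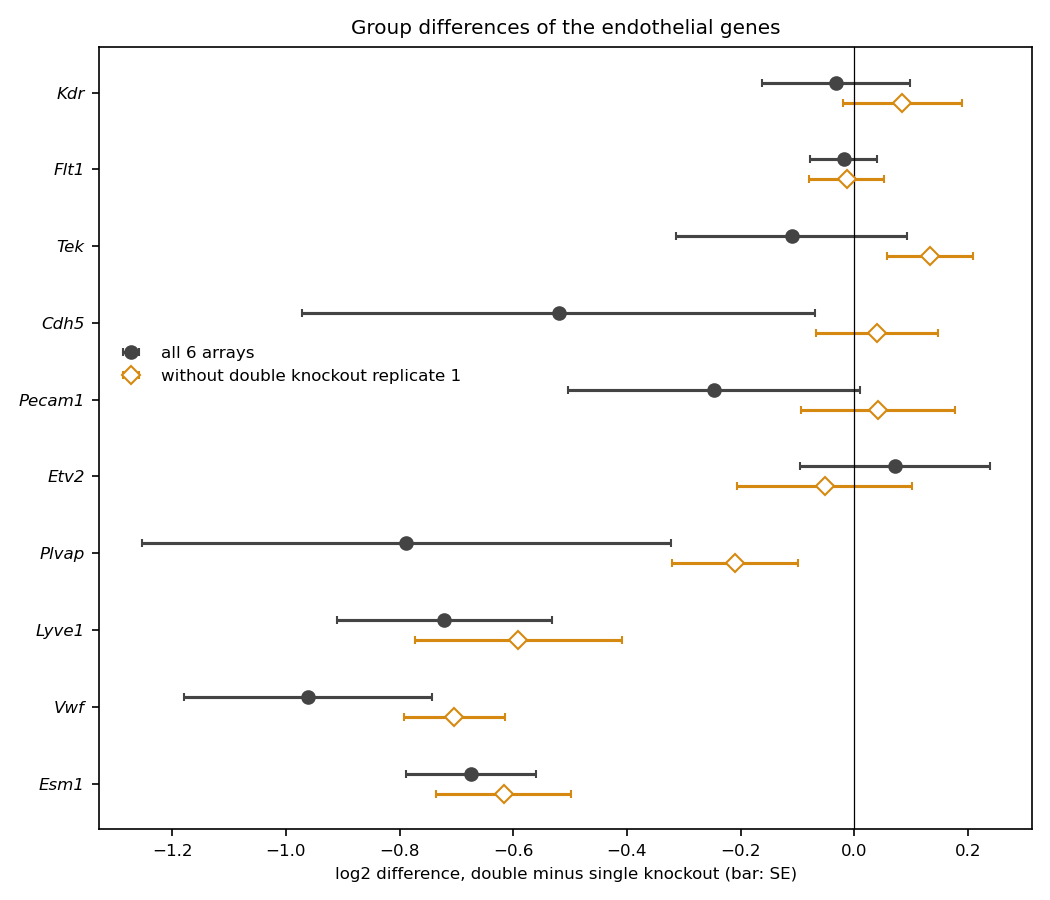
Log2 difference, double minus single knockout (horizontal axis, bars SE), for each endothelial gene, with all 6 arrays (filled circles) and without double knockout replicate 1 (open diamonds). Leaving out that array brings Cdh5 to 0.04 and Plvap to -0.21, while Vwf, Lyve1 and Esm1 stay at -0.70, -0.59 and -0.62.

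To see whether the lower values went along with a lower level of other endothelial genes in the same array, each value was set against the mean of Kdr, Tek, Cdh5 and Pecam1. The choice of these 4 was made with their values known. In double knockout replicate 1, Kdr deviated from the average of the rest by -0.30 and Cdh5 by -1.66, so the mean is not a uniform endothelial level. Flt1 was not among the 4. Relative to their mean it read 0.14, -0.68 and -0.82 in the double knockout, against -0.75, -0.71 and -0.54 in the single knockout. Their mean was 7.58, 8.47 and 8.503 in double knockout replicates 1 to 3, against 8.51, 8.496 and 8.22 in the single knockout, so only replicate 1 lay outside the range of the others by a wide margin. Relative to it Vwf read -2.92, -3.06 and -3.04 in the double knockout, against -2.40, -2.21 and -2.21 in the single knockout. The 3 double knockout arrays then agreed closely, the groups stayed apart, and the difference was -0.73 (double knockout SD 0.08, single knockout SD 0.11, n = 3 each). Vwf itself deviated from the average of the rest by -1.20 in double knockout replicate 1, between Kdr at -0.30 and Cdh5 at -1.66. Its agreement and separation on this scale therefore depend on the 4 genes averaged, and no other reference was tried. Plvap read -0.02, 0.92 and 0.69, against 1.00, 1.16 and 1.11 in the single knockout. Its groups did not overlap on this scale, although they did before the subtraction. On this scale 0.434% of all genes were lower without overlap, a share that is small because the 4 genes themselves were low in double knockout replicate 1. Lyve1 and Esm1 overlapped on this scale. Lyve1 read -3.62, -4.16 and -4.12 in the double knockout, against -3.96, -3.42 and -3.05 in the single knockout. Esm1 read -3.37, -4.10 and -4.11 in the double knockout, against -3.72, -3.50 and -3.02 in the single knockout. In both genes it was double knockout replicate 1 that came within the single knockout range.

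**Figure D3:**
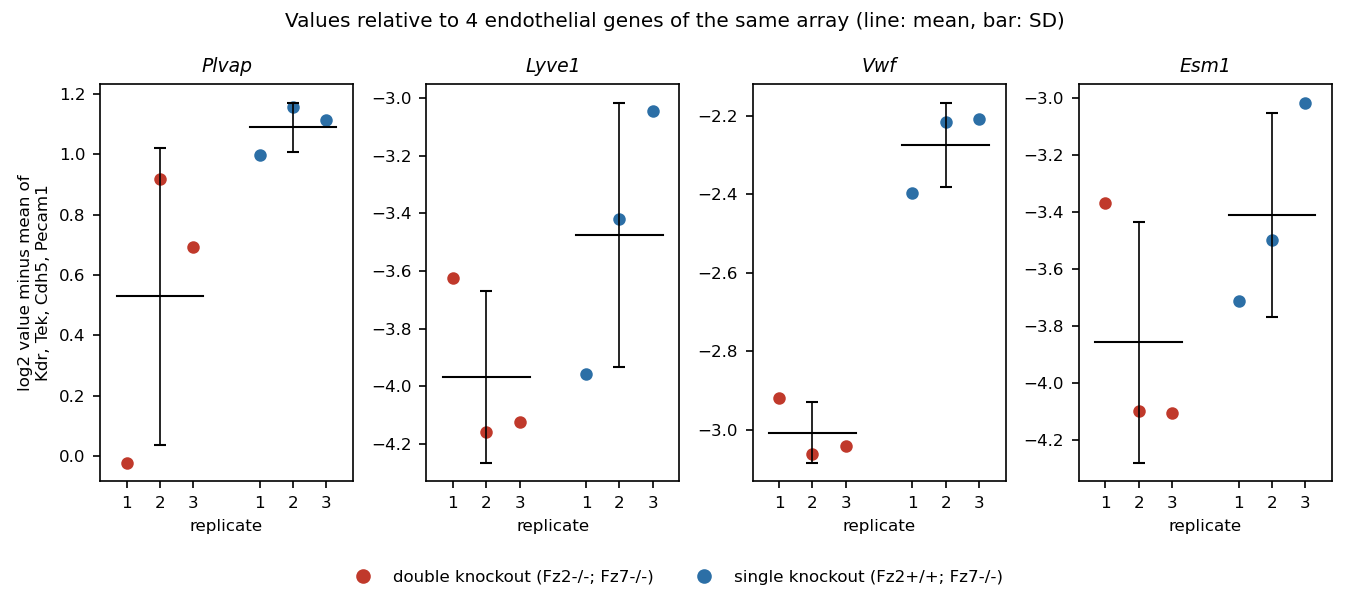
Log2 value of Plvap, Lyve1, Vwf and Esm1 minus the mean of Kdr, Tek, Cdh5 and Pecam1 in the same array (vertical axis), with double knockout replicates in red on the left and single knockout replicates in blue on the right; lines are means and bars SD (n = 3). On this scale Vwf keeps separate groups and Plvap, whose groups overlapped before the subtraction, has them too. Double knockout replicate 1 brings Lyve1 and Esm1 into the single knockout range.

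The rest of the endothelial programme was read from 3 further lists with 58 genes in all. Of these, 0 passed over all genes (smallest limma adjusted p = 0.872). An unadjusted limma p under 0.05 was found for 4 of the 58, against 4.96% of all genes. Their means were lower in the double knockout for 49 genes and higher for 9, with a median of -0.16, where 53.8% of all genes were lower. Without double knockout replicate 1, 24 were lower, against 53.3% of all genes, and the median was 0.03. Groups did not overlap for 4 genes on the lower side and 3 on the higher side, or 12.1% of the 58 against 11.4% of all genes in either direction.

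Of 13 ligands and co-receptors of the VEGF, angiopoietin and apelin pathways, 10 had a lower mean, but 4 did without double knockout replicate 1. Aplnr, the apelin receptor of early mesoderm and veins, was the brightest and read 12.29, 12.05 and 12.11 in the double knockout, against 11.95, 11.93 and 11.80 in the single knockout. Every double knockout array was above every single knockout array, with a difference of 0.26 (SE 0.08). Pgf, which encodes placental growth factor, a ligand of FLT1, also had a higher double knockout group without overlap, by 0.34 (SE 0.12). The VEGF co-receptor genes Nrp1 and Nrp2 differed by 0.08 (SE 0.07) and -0.17 (SE 0.19), and Vegfc, the lymphatic VEGF, by -0.36 (SE 0.35). None of these 5 passed the test.

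Of 20 endothelial transcription factors, 15 had a lower mean, but 8 did without double knockout replicate 1. The ETS factor genes Ets1 and Ets2 differed by -0.64 (SE 0.46) and -0.23 (SE 0.10), and Ets2 was lower without overlap. Nr2f2, which gives veins their identity, had a difference of -0.80 (SE 0.49) that shrank to -0.20 without the unusual array. Foxc2, a forkhead factor of mesoderm and vessels, differed by -0.01 (SE 0.08). Sox17, an arterial factor that gut endoderm also expresses, was higher without overlap at 0.47 (SE 0.18), or 0.27 without that array. Of 25 surface and junction genes, 24 had a lower mean, but 12 did without double knockout replicate 1. Egfl7, a secreted factor of forming vessels, differed by -0.02 (SE 0.13). The adrenomedullin receptor genes Ramp2 and Calcrl differed by -0.11 (SE 0.24) and -0.14 (SE 0.25). Robo4, Ptprb and Stab2 were lower without overlap, by -0.20 (SE 0.08), -0.36 (SE 0.15) and -0.21 (SE 0.11). Robo4 and Stab2 were dim, below the array medians in all 6 arrays. The Stab2 groups nearly met, with 4.813 in double knockout replicate 1 against 4.816 in single knockout replicate 1. Ptprb encodes the phosphatase VE-PTP that acts on TEK and VE-cadherin, and Stab2 a scavenger receptor for hyaluronan.

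Genes of neighbouring cell types were read beside these. Of 7 measured markers of megakaryocytes and platelets, which also contain VWF and PECAM1, the linear intensities summed to 445 to 471 in the double knockout and 449 to 472 in the single knockout. Itga2b, the platelet integrin, read 7.49, 7.47 and 7.54 in the double knockout, against 7.45, 7.50 and 7.47 in the single knockout. The summed ranges overlapped, and the part of these cells in the Vwf values was not tested. The 10 macrophage and blood progenitor markers summed to 1162 to 1350 in the double knockout and 1237 to 1259 in the single knockout. Linear sums weigh the brightest gene most, Itga2b in the first list and Kit in the second, and show little of the dimmer ones. The macrophage receptor gene Csf1r differed by -0.07 (SE 0.05) and was the 1 gene of the 10 lower without overlap, against 6.6% of all genes. Kit, Runx1, Myb and Spi1 differed by 0.03, 0.09, -0.05 and -0.07 (SE 0.10, 0.07, 0.08 and 0.11), and their groups overlapped. The part of such cells in the Lyve1 values was not tested. In these lists 5 of 7 and 4 of 10 genes lay below the array medians in all 6 arrays. Genes used as markers of mural cells, the smooth muscle and pericytes around vessels, had lower means for 7 of 10. Their median was -0.14, or 0.01 without double knockout replicate 1. Acta2 differed by -0.48 (SE 0.39) and Rgs5 by 0.60 (SE 0.25). In whole-embryo RNA the tissue that expressed them cannot be told.

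Red cell markers and endothelial genes were on average both lowest in double knockout replicate 1. Replicates 2 and 3 were far apart for the red cell markers and near-equal for the endothelial genes. Relative to the single knockout mean, the average deviation of the red cell markers was -3.16 in double knockout replicate 1. It was 0.15 in replicate 2 and -1.84 in replicate 3. The 10 endothelial genes deviated by -0.82, -0.20 and -0.17 in the same arrays. In single knockout replicates 1 to 3 the red cell markers deviated by 0.02, 0.21 and -0.23 and the endothelial genes by 0.01, 0.07 and -0.08, in the same order. Kdr, Tek, Cdh5 and Pecam1 in replicate 3 lay close to replicate 2, although Hbb-y read 9.28 in replicate 3 and 13.51 in replicate 2. Summed as linear intensities, the 10 red cell markers came to 503 to 34972 in the double knockout and 23836 to 34328 in the single knockout. Visceral endoderm and yolk sac markers deviated by a mean of 2.66 in double knockout replicate 1, and placental and maternal tissue markers by 1.43. Epiblast and streak markers deviated by a mean of 1.42, 0.25 and 0.41 in the 3 arrays. Embryo proper markers of the labelled stage deviated by -1.53, -0.30 and -0.34. Of the 11 epiblast and streak markers, 5 were higher without overlap and 0 lower, against 4.85% and 6.6% of all genes. Of the 12 embryo proper markers, 6 were lower without overlap and 0 higher. Such separation was thus not particular to the endothelial genes, and the lists were chosen with earlier results known. None of these lists had a gene past the threshold, and their part in the endothelial values was not tested.

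**Figure D4:**
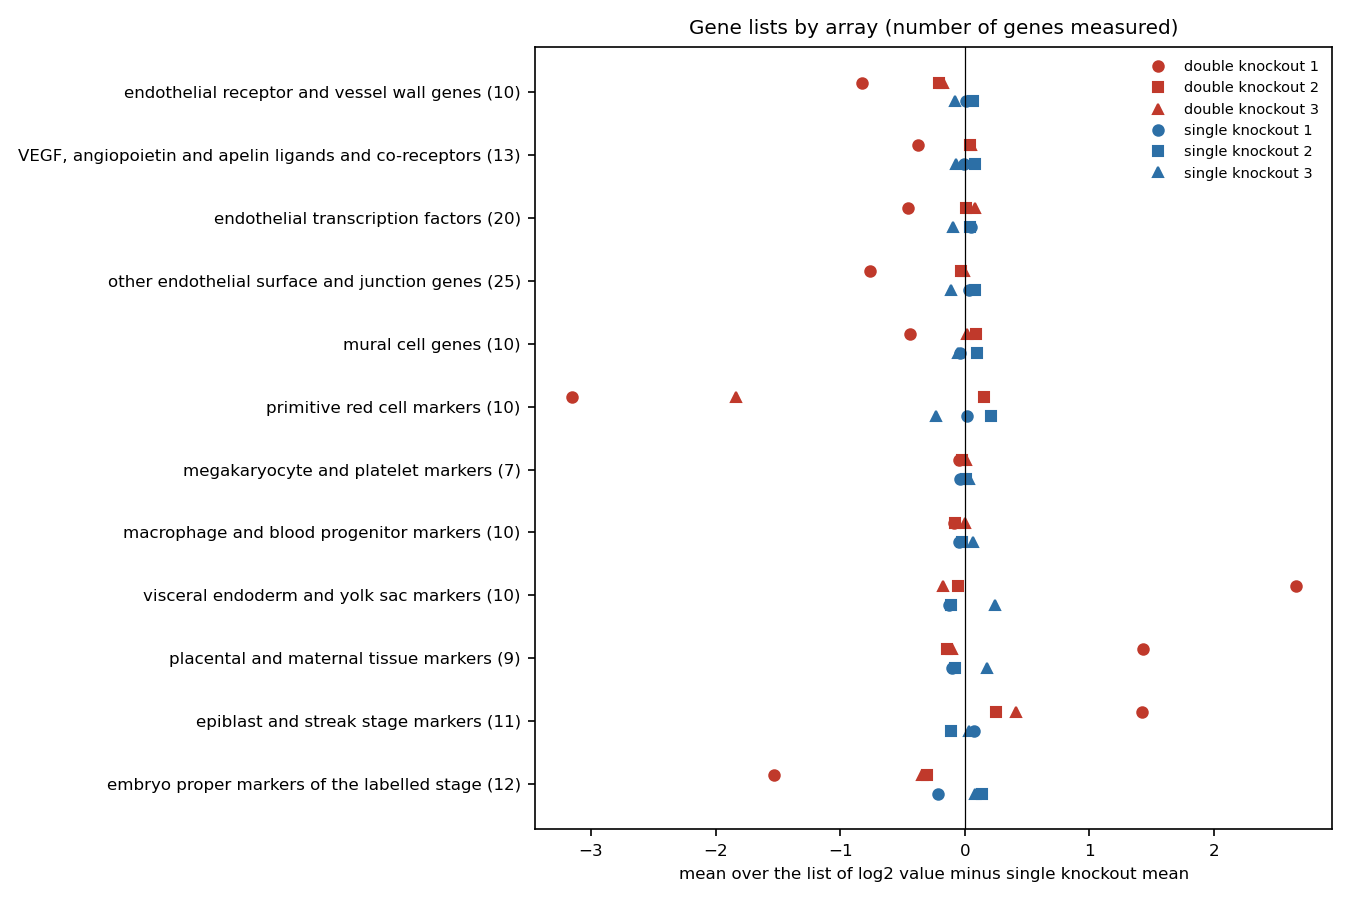
Mean over each gene list of the log2 value minus that gene's single knockout mean (horizontal axis) for each array, with double knockout replicates in red above and single knockout replicates in blue below in each row; the number of genes measured stands beside each list. The 3 further endothelial lists lie near 0 in all arrays except double knockout replicate 1, while red cell markers are low in double knockout replicates 1 and 3.

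Genes with the most similar pattern were sought for Kdr, Etv2 and Esm1 as the smallest root-mean-square (RMS) difference over the 6 arrays, after centring each gene on its own mean. The genes nearest to Kdr were Mef2d, Hspa12b and Mxd4, at RMS differences of 0.031, 0.034 and 0.035 log2 units, against a spread of Kdr itself of 0.15. Nearest to Etv2, whose spread was 0.21, were H3f3b, Sesn2 and Il17d at 0.042, 0.052 and 0.056. Nearest to Esm1, whose spread was 0.36, were the somite factor Meox1 at 0.11 and Gad1 and Lyve1 at 0.12 each. Meox1 read 8.37, 8.78 and 8.74 in the double knockout, against 8.98, 9.32 and 9.33 in the single knockout, so its groups did not overlap. Predicted genes, cDNA-clone genes, pseudogenes and genes with names starting in Rpl or Olfr were left out of this search. With 6 arrays, some of the many genes that remain will resemble any profile.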

How the data were processed

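Per the labels' protocols, Trizol and RNeasy were used to purify total RNA of 6 whole-embryo samples, which was then biotin-labelled. The deposited table gives log2 values of 45101 probe sets, and the submitters' processing notes name RMA, short for robust multi-array average. RMA subtracts background, gives all arrays the same distribution and combines the probes of a set. The log2 scale was inferred from the values, which ran from 2.64 to 15.17. No source used here names versions or probe definitions, raw scans were not used here, and the number of arrays limits the precision.

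Probe sets were named through the platform annotation. Of them 34945 had 1 gene symbol, 932 several, 9160 none listed and 64 were controls. The probe set with the highest mean represented each of 18193 genes. Groups and replicate numbers came from the sample titles. The groups were compared with limma 3.58.1 under R 4.3.3 by two-sided moderated tests (lmFit and eBayes), and p-values were adjusted over all genes by the Benjamini-Hochberg method at a threshold of 0.05. Differences are double minus single knockout. The scripts were tested on simulated data.

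The 10 genes, the gene lists and the naming rule (the 10 genes, Fzd2 and Fzd7, the 4 brightest genes of a list and the 1 with the smallest p) were chosen with earlier results of these data known. From the lists of other tissues only some of these are named. Pgf, Ptprb, Stab2 and the genes compared by RMS pattern beyond that rule were named after their values were seen or by the pattern itself, as were the promoter motifs. Lists were described by counts and medians, without a list test. The alternatives were leaving out dim genes, robust moderation with an intensity trend, a replicate block, other probe sets or their mean, testing all probe sets, 2 further scalings, array weights and leaving out each array.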

Additional observations from a re-analysis of the deposited data

How the results depend on the processing

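Over 131 recomputed differences of the 10 endothelial genes under the alternatives, 119 kept the direction, 12 changed sign and 0 passed the threshold (smallest limma adjusted p = 0.486). The replicate block, the intensity trend and leaving out dim genes change the error and p of a gene but not its difference. Averaging probe sets changes only genes with several. The count of kept directions therefore includes values that repeat the main difference by design. Vwf, Lyve1, Esm1 and Plvap kept their direction in every alternative run. For Vwf, Lyve1 and Esm1, whose groups did not overlap, leaving out or weighting arrays could not have changed the sign. With array weights Kdr became 0.0768 and Tek 0.0708, and other probe sets gave 0.164 for Flt1 and 0.126 for Cdh5, all on the other side of 0. When each array was left out in turn, Kdr ranged from -0.121 to 0.0846, Flt1 from -0.0484 to 0.00533, Tek from -0.241 to 0.133, Cdh5 from -0.809 to 0.0401, Pecam1 from -0.399 to 0.0417 and Etv2 from -0.0522 to 0.212. Lyve1 moved to -0.43 with the mean of its probe sets. The number of genes called was 1 in most alternatives and 0 with the mean of the probe sets, where Fzd2 was at -2.49 (limma adjusted p = 0.0691). It was 0 to 1 when each array was left out, with Fzd2 from -2.49 to -2.30, and 0 without double knockout replicate 3 or any 1 single knockout replicate. Same-numbered samples correlated at 0.09, -0.04 and -0.13 in their deviations from the group means, so the numbers were not taken as pairs, and with the replicate block 1 gene was called. Further scalings moved the median of all genes by less than 0.01. Lyve1 and Esm1 were dim, and signal near background limits what their differences can show.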
